A study of Gossypium hirsutum with 9 samples.

Results

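The comparison described here sets the 3 RNA sequencing libraries from cotton ovules cultured on 300 mM glucose against the 3 from ovules cultured on 150 mM glucose. These are 6 of the 9 libraries of the series, and they were chosen by the glucose concentration in their labels. Both groups are ovules of strain TM-1 of upland cotton (Gossypium hirsutum) after 5 days in culture, and the glucose concentration is the one difference the labels give. The other 3 libraries, from ovules on 50 mM glucose, took no part in the test and are given as a reference level. Whether a group's replicates were separate cultures is not in the labels, so p-values reflect the spread of these 6 libraries alone, and that spread may be technical. The labels name no group with another sugar or an osmotic agent in place of glucose. Glucose as a sugar and the osmolarity of the medium therefore cannot be told apart.

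A cotton fibre is a single cell that grows out of the outer layer of the ovule. Ovules floated on a culture medium form fibres outside the plant and draw their carbon from the sugar supplied. In plants glucose is a fuel, a source of wall polysaccharides and a signal sensed by the cell, and at high concentration it also lowers the water potential of the medium. Brassinosteroids are steroid hormones that promote cell elongation, and the title of the series ties the effect of glucose on fibre growth to them. The RNA came from ovules as a whole, so in every result fewer cells of a type and less RNA per cell cannot be told apart. Upland cotton is a tetraploid whose genome joins those of a pair of ancestral species, known as the A and D subgenomes. Most gene IDs in the files name a chromosome of one of them (A01 to A13, D01 to D13) but are not paired with gene names or descriptions. None of them matched the 99454 genes of the reference table (0 matches), so no function is given for any gene below, and the fibre, integument or embryo content of the ovules was not checked with marker genes.

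Reads counted on the gene rows numbered 17803779 to 18881677 per library, as recovered from the deposited FPKM values (reads per kilobase of gene, relative to a library-size term). Reads outside those rows cannot be seen in these values. A gene was tested where its FPKM was at least 1 in at least 3 of the 6 libraries, which 49287 of 80970 rows met. A single read per kilobase of gene is an FPKM of 0.05 to 0.0545, so counting error is small except in low or short genes. Such intervals cover counting error only.

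Before any result, 1 library stood apart from its group. Replicate 1 at 300 mM correlated across genes at 0.952 with replicate 2 and 0.945 with replicate 3 of its own group. With the 150 mM libraries its correlations were 0.951, 0.927 and 0.956. Replicates 2 and 3 at 300 mM correlated at 0.96 with each other and at 0.913 to 0.926 with the 150 mM libraries. Within 150 mM the correlations were 0.961 to 0.975. On the first principal component of the 6 libraries (49.3% of the variance) replicate 1 lay at 20.8, against 70.2 for replicate 3, with replicate 2 just below that, and -62.0 to -47.5 for 150 mM. The second component (20.1%) ran from -56.5 for replicate 1 at 300 mM to 49.0 for replicate 2 at 150 mM. Genes are not independent replicates in these correlations. Results of the test are therefore given with and without that library.

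At 300 mM glucose many more genes were lower than higher relative to 150 mM. In the fit of the 6 libraries 2026 genes were called (4.11% of those tested, limma adjusted p under 0.05), of which 1663 fell (3.37%) and 363 rose (0.737%). Rises were thus 17.9% of the calls. Falling genes had a median log2 change of -1.38 and rising genes of 1.25, where the median of all tested genes was -0.0046. Of the genes that fell, 1267 were lower by at least 2-fold, 367 by at least 4-fold and 41 by at least 8-fold. The corresponding numbers among the genes that rose were 244, 45 and 10.

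Without replicate 1 at 300 mM more genes passed, although the group then held 2 libraries. The calls numbered 3129 (6.44% of 48610 tested), with 2343 falls (4.82%) and 786 rises (1.62%), so that rises were 25.1% of the calls. The median log2 changes stayed near those of the 6 libraries, at -1.35 and 1.17. Falls of at least 2-, 4- and 8-fold numbered 1727, 508 and 99, and rises of those sizes 513, 98 and 18. A gene expressed at 300 mM alone cannot reach the filter in 3 of these 5 libraries, and 45 of the 363 rises were not tested for that reason. With the filter set on all 6 libraries, a setting chosen after seeing the data, 849 genes rose and 2340 fell.

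Most called genes that could be tested without replicate 1 passed again. Of the 1663 falls in 6 libraries, 1523 passed again without replicate 1 (91.6%), which were 65.0% of the falls called there. Of the 363 rises, 318 could be tested and 270 of these passed again (84.9%). The 270 were 74.4% of all 363 and 34.4% of the rises called without that library. The difference between rises and falls was not tested. No gene called in both fits went in opposite directions (0 of 1793). The smaller fit uses only libraries that are also in the larger one. Passing again and keeping direction are therefore partly built in and are not separate support. The number of calls moved with every library. Leaving out replicates 1, 2 and 3 at 150 mM in turn gave 607, 863 and 803 calls, and leaving out replicates 2 and 3 at 300 mM gave 606 and 1054. In each of these fits falls outnumbered rises, with 76, 136, 124, 65 and 125 rises in the same order. Leaving out a 150 mM library bars genes expressed at 150 mM alone from the filter. Leaving out a 300 mM library bars those expressed at 300 mM alone, which favours falls.

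**Figure D1:**
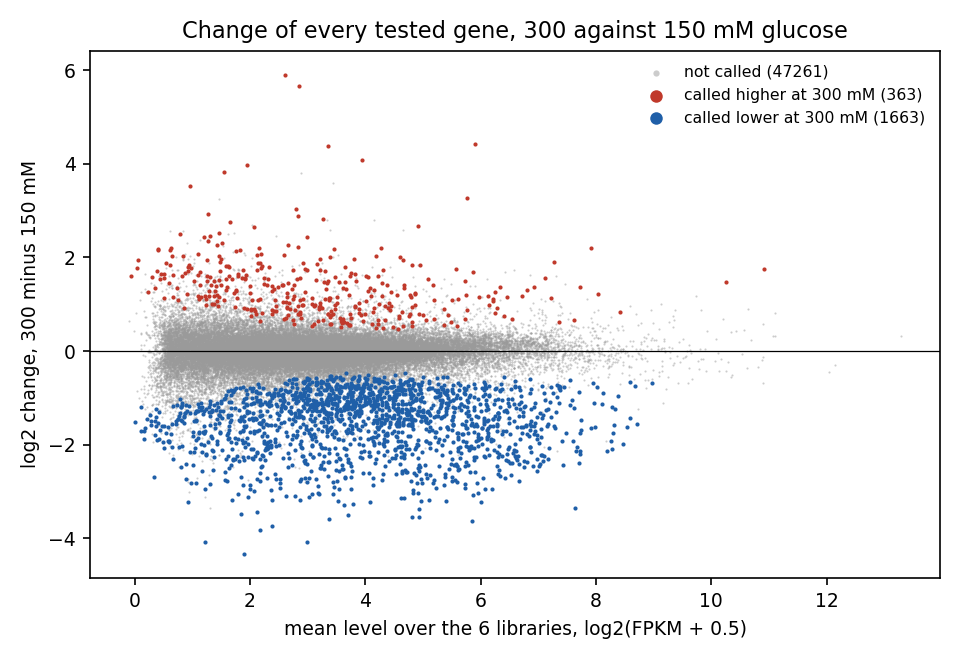
Log2 change between 300 and 150 mM glucose (y axis) against the mean level over the 6 libraries on the log2(FPKM + 0.5) scale (x axis), 1 point per tested gene. The 1663 genes called lower (blue) reach from the lowest levels to all but the very highest. The 363 called higher (red) are sparser and lie mostly at low and middle levels, where most tested genes also lie.

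The excess of falls also appeared in quantities that do not use the adjusted p. These quantities come from the same libraries as the calls, so they are not separate support. Among all tested genes 1992 were lower at 300 mM by at least 2-fold and 682 were higher by that much. Without replicate 1 at 300 mM the numbers were 2306 and 996. The filter then bars genes expressed at 300 mM alone but not those expressed at 150 mM alone. All counts without replicate 1 in this paragraph therefore favour falls. All 300 mM libraries lay below all 150 mM libraries in 6626 genes (13.4% of those tested), and the reverse held in 4787 genes (9.71%). Without replicate 1, a count added after seeing the data, the numbers were 10226 (21.0%) and 8270 (17.0%) of 48610 genes, where 2 libraries are more easily kept apart from 3 than 3 are. With limma and no adjustment, 5400 lower and 3148 higher genes had a p under 0.05, and 6204 and 3857 did without replicate 1. Of the genes that differed by at least 2-fold, 56.5% passed the adjusted test, and 67.8% did without replicate 1. The median standard error of a log2 change was 0.178 (0.186 without replicate 1), and the smallest change called was 0.467 in size (0.528 without it).

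The genes that fell were among the more abundant ones and carried a sizeable part of all expression. Summed over the 1663 genes, they made up 9.46%, 11.1% and 9.11% of the total FPKM in replicates 1, 2 and 3 at 150 mM. In the 300 mM libraries the sum was 4.42%, 3.35% and 3.03%, so that all 300 mM libraries were below all 150 mM libraries. Their median FPKM was 23.2, 29.5 and 22.4 at 150 mM and 11.2, 8.83 and 8.29 at 300 mM. The 363 genes that rose were a smaller part, with 0.633%, 0.596% and 0.694% of the total at 150 mM and 1.53%, 2.07% and 1.82% at 300 mM. Their median FPKM went from 4.36, 4.70 and 4.60 to 10.2, 13.1 and 12.1. The genes called without replicate 1 at 300 mM gave the same order. The 2343 falling genes made up 11.1%, 12.5% and 10.7% of the total at 150 mM, and 4.10% and 3.69% in replicates 2 and 3 at 300 mM, with 5.84% in replicate 1. Their median FPKM was 18.1 to 20.8 at 150 mM and 7.49 and 6.99 in those replicates. The 786 rising genes made up 1.64% to 1.76% at 150 mM, 4.60% and 4.06% in replicates 2 and 3, and 2.80% in replicate 1. Their median FPKM was 5.87 to 6.65 at 150 mM and 15.9 and 15.2 in replicates 2 and 3. All these values describe genes that the test chose and do not add support to it.

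Replicate 1 at 300 mM had the mildest shift of its group in both sets. Relative to the mean of the 150 mM libraries, the median log2 level of the falling genes was -1.14 in replicate 1, -1.45 in replicate 2 and -1.52 in replicate 3. For the rising genes it was 1.04, 1.32 and 1.29. In the sets called without replicate 1, its own median was -0.855 for the 2343 falling genes, while replicates 2 and 3 stood at -1.32 and -1.35. For the 786 rising genes it was 0.446, against 1.20 and 1.13.

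**Figure D2:**
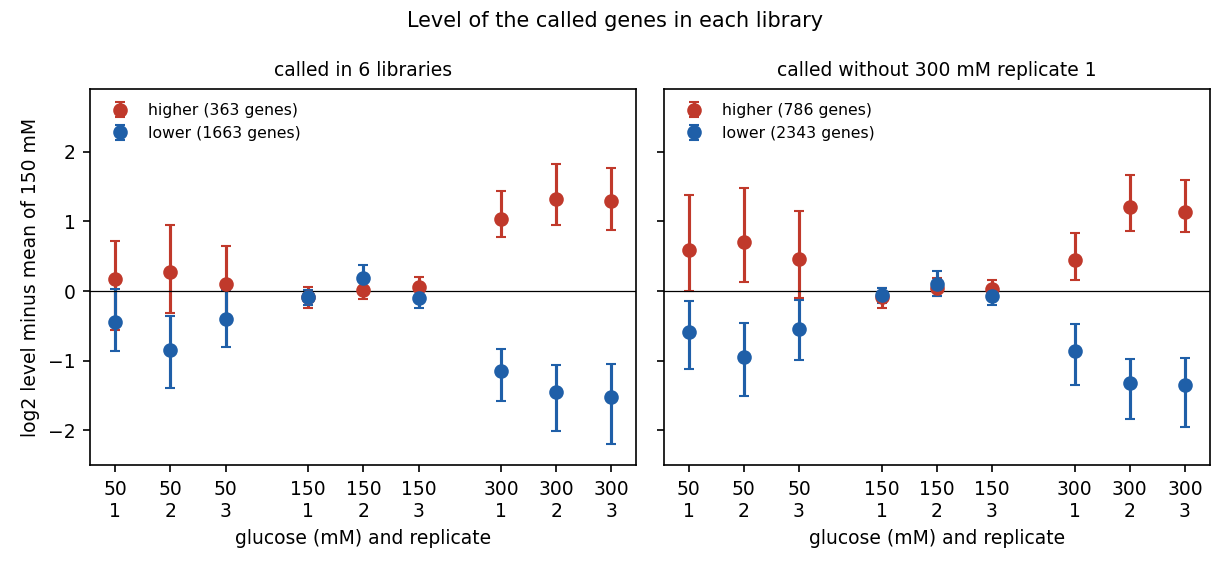
Median level of the called genes in each of the 9 libraries, minus their mean at 150 mM, on the log2(FPKM + 0.5) scale (y axis); bars span the 25th to 75th percentile over genes. Red points are genes called higher and blue points genes called lower at 300 mM, for the 6 libraries (left) and without replicate 1 at 300 mM (right), where that replicate lies at 0.446 and -0.855.

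To place each library with genes chosen without it, the comparison was fitted 6 times with 1 library left out, and the left-out library was read in the genes called from the other 5. On a scale where 0 is the mean of the other concentration and 1 the mean of the remaining libraries of its own, replicate 1 at 300 mM had a median position of 0.402 in the rising genes. Its position in the falling genes was 0.621. The other libraries at 300 mM lay at 1.08 and 0.911 in rising genes and at 1.05 and 1.12 in falling genes. The 150 mM libraries lay between 0.766 and 0.922 in the rising and between 0.852 and 1.24 in the falling genes, with the highest value in replicate 2. Replicate 1 at 300 mM had the lowest position of the 6 libraries in both sets of genes. The libraries of the other concentration enter both the choice of genes and the scale, and a median over chosen genes carries no test.

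Individual genes divided in how far replicate 1 had moved. Of the 2343 falling genes called without it, replicate 1 lay between the ranges of the 150 mM libraries and the other 300 mM libraries in 1733 (74.0%). It lay within the 150 mM range in 160 (6.83%), and within or past the range of the other 300 mM libraries in 282 and 131 (5.59%). Of the 786 rising genes, it lay between the ranges in 485 (61.7%) and within the 150 mM range in 165 (21.0%). It was on the far side of the 150 mM libraries in a further 60 rising (7.63%) and 37 falling genes (1.58%). For the other 5 libraries, the share of genes within the range of the opposite concentration was 0% to 3.2%. Those shares rest on fewer genes, 65 to 136 rising and 531 to 929 falling. The fits that called them kept replicate 1 at 300 mM, so the shares are not on equal terms.

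**Figure D3:**
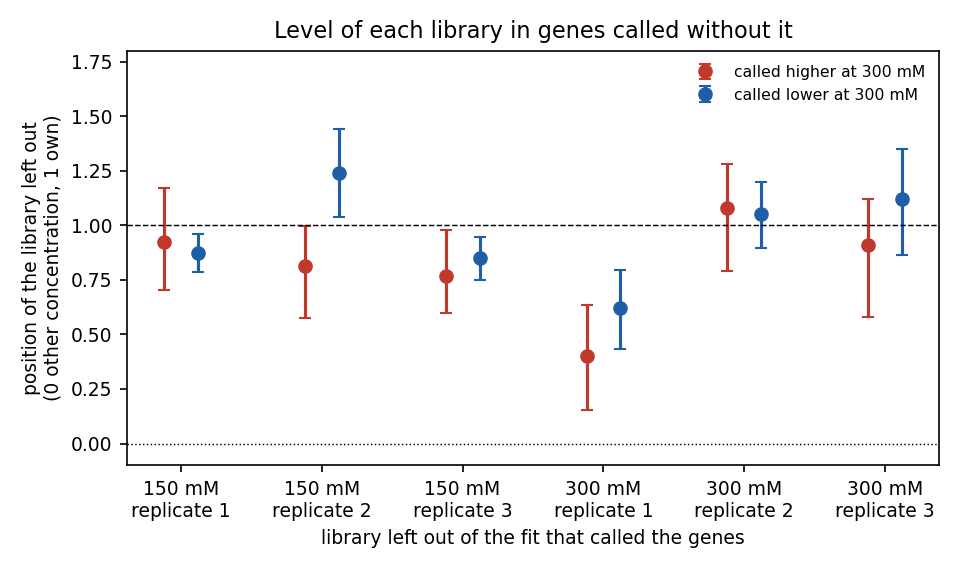
Position of each library (x axis) in genes called from the other 5 libraries, where 0 is the mean of the other concentration and 1 the mean of the remaining libraries of its own (y axis, no unit). Points are medians and bars the 25th to 75th percentile over genes called higher (red) or lower (blue) at 300 mM; replicate 1 at 300 mM lies at 0.402 and 0.621.

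The spread within the 300 mM group was the wider of the pair. The median standard deviation of a gene on the log2(FPKM + 0.5) scale was 0.17 at 150 mM and 0.216 at 300 mM (n = 3 each). Over all tested genes the pairs at 300 mM had 0.163 for replicates 1 and 2, 0.173 for 2 and 3, and 0.192 for 1 and 3, so the pair without replicate 1 was not the tightest. Among the genes that fell, the standard deviation was 0.231 at 150 mM and 0.293 at 300 mM. In those genes replicates 2 and 3 at 300 mM had 0.188, against 0.256 and 0.3 for the pairs that include replicate 1. At 150 mM the pair of replicates 1 and 3 had 0.11 and the pairs that include replicate 2 had 0.226 and 0.251. Replicate 2 at 150 mM was the highest of the 6 libraries by at least 2-fold in 365 genes, where the other 5 libraries were so in 6 to 129.

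The share of genes called rose with their abundance. In percentage points falls made up most of this increase, and the share called higher was also larger in the highest class than in the lowest. Among genes with a mean FPKM under 2 over the 6 libraries, 1.25% were called lower and 0.632% higher, of 6015 tested. At a mean of 10 to 20 the shares were 3.5% and 0.749% of 10277 genes. At a mean of 100 or more they were 12.7% and 1.16% of 1293 genes. Over all genes tested in that highest class the median log2 change was -0.0107, so the falls were spread over a part of the class rather than over all of it.

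Without replicate 1 at 300 mM the same order of falls was seen, with 2.7% called lower under a mean FPKM of 2, 5.04% at 10 to 20 and 15.1% at 100 or more. Rises then went from 0.432% under 2, where the filter acts most, to 1.67% at 2 to 5 and 2.93% at 100 or more. Precision alone also differs by abundance, since with 6 libraries the median standard error fell from 0.269 under a mean of 2 to 0.142 at 20 to 50. The standard error was 0.169 at 100 or more, where 12.3% of genes were lower by at least 2-fold regardless of the test, against 3.25% at 10 to 20 with a standard error of 0.143. Genes higher by at least 2-fold were 1.93% and 0.847% of the same classes. These shares did not rise throughout, since the class under 2 had 4.37% lower and 2.19% higher by 2-fold, and the class of 5 to 10 had 2.58% and 1.09%. Without replicate 1 at 300 mM, genes lower by 2-fold were 13.4% at 100 or more, 3.81% at 10 to 20 and 5.01% under 2. Genes higher by 2-fold were then 2.93%, 1.47% and 2.29% of those classes. The part of precision in the shares called was not tested.

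**Figure D4:**
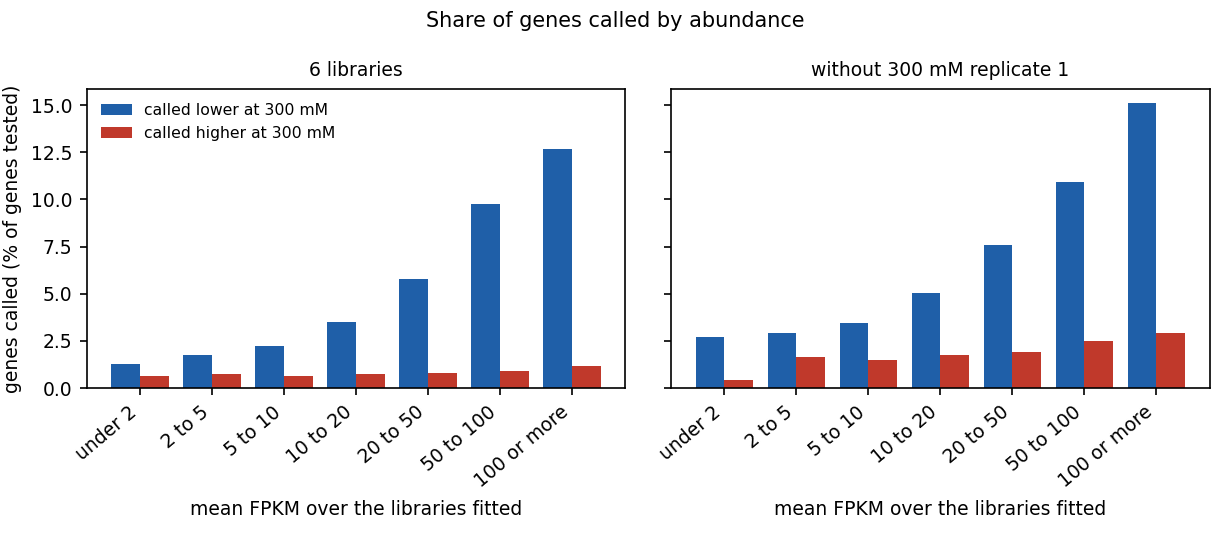
Percentage of tested genes called lower (blue) or higher (red) at 300 mM (y axis) in 7 classes of mean FPKM (x axis), with all 6 libraries (left) and without replicate 1 at 300 mM (right). Calls of lower genes go from 1.25% in the lowest to 12.7% in the highest class with 6 libraries, and calls of higher genes from 0.632% to 1.16%.

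Named genes were taken only among genes whose 300 and 150 mM libraries do not overlap, so their separation was fixed by that choice. Among those that rose and passed with and without replicate 1, Gohir.D12G274150.v2.1 on chromosome D12 had the largest log2 change. Its FPKM was 1.13, 0 and 0.762 in replicates 1 to 3 at 150 mM, from 3, 0 and 2 reads. At 300 mM it was 67.4, 84.9 and 22.6, from 182, 224 and 61 reads, so that the groups were far apart and replicate 3 was the lowest of its group. The mean went from 0.631 ± 0.576 to 58.3 ± 32.1 (SD, n = 3 each). The log2 change was 5.66 (SE 0.574, limma adjusted p = 0.00591), and 5.46 without replicate 1 (SE 0.653, limma adjusted p = 0.00524).

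Replicate 1 at 300 mM was not close to the 150 mM libraries in this gene. Reads were 90.1 times as frequent at 300 as at 150 mM, and counting error alone allows 38.4 to 278.9 (95%, exact binomial on the summed reads). The limma-voom method, which takes recovered reads and weights each value by its expected precision, gave a change of 6.32 that did not pass (limma adjusted p = 0.146). The adjusted p was 0.0019 to 0.0309 under the other alternatives. The 50 mM libraries held 1.98, 6.68 and 2.41, above those at 150 mM and below those at 300 mM. The recovered length was 135 bases, and the levels at 50 and 150 mM rest on few reads. Without replicate 1 at 300 mM the gene met the filter only with replicate 1 at 150 mM, at an FPKM of 1.13 from 3 reads.

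The most abundant of the rising genes that passed with and without replicate 1, Gohir.D10G155200.v2.1 on chromosome D10, ranked 5 of 49287 by mean FPKM. Its FPKM was 1007, 957 and 1235 in replicates 1 to 3 at 150 mM and 2495, 4293 and 4199 at 300 mM. The groups did not overlap, which the choice of named genes required, and replicate 1 was the lowest library at 300 mM. The means were 1066 ± 148.3 and 3662 ± 1012 (SD, n = 3 each). The log2 change was 1.75 (SE 0.245, limma adjusted p = 0.0118), and 2.0 without replicate 1 (SE 0.181, limma adjusted p = 0.00218). At 300 mM this gene took 0.161%, 0.28% and 0.268% of the recovered reads, against 0.0569% to 0.0755% at 150 mM. The 50 mM libraries, at 1295, 1694 and 1081, reached from within the 150 mM range to above it and stayed below those at 300 mM. The call was lost without replicate 1 at 150 mM (limma adjusted p = 0.0588, log2 change 1.71) and without replicate 2 at 300 mM (limma adjusted p = 0.0517, log2 change 1.61).

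Of the genes that fell and passed with and without replicate 1, Gohir.A09G106800.v2.1 on chromosome A09 had the largest change. Its FPKM was 14.7, 10.8 and 26.6 in replicates 1 to 3 at 150 mM, from 212, 145 and 379 reads. It was 0.751, 0 and 0.411 at 300 mM, from 11, 0 and 6 reads, and here too replicate 1 was the 300 mM library nearest to 150 mM. All 300 mM values were under the FPKM of 1 set by the filter. The gene was thus tested through its 150 mM libraries alone, which favours a fall. The means were 17.4 ± 8.25 and 0.387 ± 0.376 (SD, n = 3 each). The log2 change was -4.33 (SE 0.414, limma adjusted p = 0.00551), and -4.63 without replicate 1 (SE 0.408, limma adjusted p = 0.00211). The read rate was 44.9 times higher at 150 than at 300 mM, or 27.8 to 77.4 times within 95% counting error. At 50 mM the gene stood between, at 5.62, 3.19 and 2.52. By limma-voom the change was -6.11 and missed the threshold (limma adjusted p = 0.055). The adjusted p was otherwise 0.00165 to 0.0253.

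Gohir.A02G078500.v2.1 on chromosome A02 was the most abundant of the falling genes that passed with and without replicate 1, at rank 95. Its FPKM was 616, 628 and 664 at 150 mM and 428, 348 and 408 at 300 mM in replicates 1 to 3. All 300 mM libraries lay below all 150 mM libraries, which the choice of named genes required, with replicate 2 the lowest. The means were 635.9 ± 24.8 and 394.9 ± 41.5 (SD, n = 3 each). The log2 change was -0.69 (SE 0.143, limma adjusted p = 0.0406), and -0.75 without replicate 1 (SE 0.155, limma adjusted p = 0.0357). This call was near the threshold and was lost in 9 of 19 alternatives, among them each removal of a library other than replicate 1 at 300 mM and scaling to recovered reads (limma adjusted p = 0.0576). The change itself was -0.752 to -0.604 over the 19. The 50 mM libraries, at 699, 655 and 805, lay above the 150 mM range, apart from replicate 2, which was within it.

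**Figure D5:**
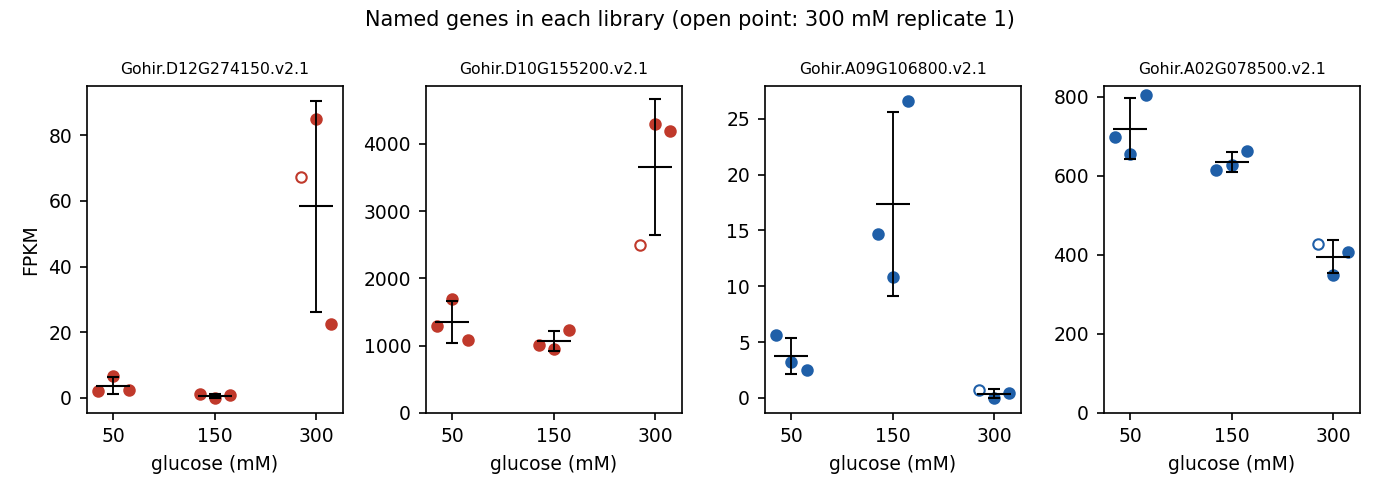
FPKM (y axis) of the 4 named genes in each library at 50, 150 and 300 mM glucose (x axis); points are libraries, the open point is replicate 1 at 300 mM, and black marks are the mean and SD (n = 3). The 4 genes were chosen among genes whose 300 and 150 mM libraries do not overlap, so their separation is no result.

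The level at 50 mM shows where the genes called between 150 and 300 mM stood at the lowest glucose. Of the 1663 genes that fell, the mean at 50 mM lay between the means at 150 and 300 mM in 1182 (71.1%), above both in 318 (19.1%) and below both in 163 (9.8%). Their median log2(FPKM + 0.5) was 4.2 at 50 mM, 4.67 at 150 mM and 3.31 at 300 mM. Relative to the mean at 150 mM, replicates 1, 2 and 3 at 50 mM had medians of -0.443, -0.852 and -0.404. Of the 363 genes that rose, the mean at 50 mM lay between in 172 (47.4%), below both in 156 (43.0%) and above both in 35 (9.64%). Their medians were 2.5, 2.35 and 3.63 at 50, 150 and 300 mM.

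In the sets called without replicate 1, the genes that rose stood higher at 50 mM. The mean at 50 mM was above both others in 208 of 786 rising genes (26.5%), between in 384 (48.9%) and below both in 194 (24.7%). Of the 2343 falling genes 1596 (68.1%) had their 50 mM mean between, 419 (17.9%) below both and 328 (14.0%) above both. The genes were chosen for their difference from 150 mM, so a 50 mM mean displaced from 150 mM toward 300 mM is favoured by that choice, and these counts are descriptions only.

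Calls were spread over both subgenomes and all 26 chromosomes. Of 22381 tested A genes 958 were called (4.28%), and of 23062 D genes 1017 (4.41%), both near the 4.11% of all tested genes. Rises were 17.1% of the A calls and 18.0% of the D calls. Without replicate 1 at 300 mM the shares called were 6.74% and 6.83%, and rises made up 24.7% and 24.9% of them. By chromosome the share called ran from 3.34% on A08 to 6.34% on D02, with 5.19% the next highest. Without replicate 1 it ran from 5.68% on D10 to 8.65% on D02, with 8.64% on D05. Falls outnumbered rises on each of the 26 chromosomes in both fits. Reads of near-identical A and D copies may be split between them in ways the sources used here do not state, and neighbouring genes are not independent.

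Of 3752 tested loci whose IDs lack the Gohir prefix, 48 were called (1.28%), 15 higher and 33 lower. Without replicate 1 at 300 mM the numbers were 75 of 3618 (2.07%), with 26 higher. Their median FPKM was 2.72, against 8.76 for A and 8.45 for D genes, and 2.5% of all tested genes with a mean FPKM of 2 to 5 were called. The part of the lower level in that share was not tested.

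Among 7 summaries of whole libraries, 4 had groups that did not overlap, which include the library-size term. The 10 most abundant genes took 1.81% ± 0.151 of the recovered reads at 150 mM and 2.29% ± 0.0321 at 300 mM (mean ± SD, n = 3 each), and the groups did not overlap. At 50 mM the shares were 1.81%, 2.41% and 1.84% in replicates 1 to 3, so replicate 2 there was above every 300 mM library. A genes made up 48.6% ± 0.126 of the summed FPKM at 150 mM and 48.0% ± 0.286 at 300 mM, and loci outside the Gohir naming 1.81% ± 0.0775 and 2.03% ± 0.0587. These 3 differences each had an exact two-sided permutation p = 0.1, the smallest that 3 against 3 libraries allow, and an adjusted p = 0.175 over 7 summaries. Without replicate 1 the 300 mM means were 2.29%, 48.0% and 2.03%. The number of genes at an FPKM of at least 1 was 48668 ± 243.6 at 150 mM and 48533 ± 217.2 at 300 mM (exact permutation p = 0.5). The 300 mM mean without replicate 1 was 48614.5.

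The library-size term of the deposited values was 1.03 ± 0.0236 times the recovered reads at 150 mM and 1.09 ± 0.0122 times at 300 mM (n = 3 each; 1.09 without replicate 1). It therefore lowered the 300 mM values relative to a scaling by reads. Scaling by recovered reads instead gave 519 rises and 1409 falls, so that rises were 26.9% of calls in place of 17.9%. Over all genes the median log2 change was then 0.0728. Without replicate 1 the same scaling gave 1087 rises and 2032 falls, or 34.9% higher against 25.1%. Falls outnumbered rises under each of the scalings tried with 6 libraries, and under both scalings tried without that library.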

How the data were processed

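The authors deposited 1 table of FPKM values per library, with 80970 rows. HISAT2 and featureCounts 1.5.0-p3 are named in the submitters' processing notes. The Gohir IDs named above end in a version suffix. Otherwise no source used here gives the build, annotation, strand setting or library-size term. The FPKM unit was recognised from the deposited values themselves. Per the labels, libraries were made from total RNA with a NEBNext Ultra kit. Within a gene the FPKM values stood in whole-number ratios after 1 factor per library, and whole reads were recovered for all 68279 rows above 0 (tolerance 1e-06, lengths under 60000 bases). No libraries were identical; the chi-square per degree of freedom within groups was 5.62 to 18.0.

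The test was limma 3.58.1 (empirical Bayes, mean trend, robust variance; statmod 1.5.0, R 4.3.3) on log2(FPKM + 0.5), two-sided, with Benjamini-Hochberg adjustment over 49287 genes and a threshold of 0.05. Only the 6 libraries at 150 and 300 mM entered it. The scale understates changes of low genes. Scripts were tested on simulated data. The members and lists were chosen with earlier results of these data known. Named genes passed with and without replicate 1 at 300 mM and had groups that did not overlap. Their mean FPKM was at least 5 in the higher group. This was met by 236 rising and 1389 falling genes. In each direction the largest log2 change and the highest mean FPKM were taken, because the IDs have no names. A rising gene under an FPKM of 1 in every 150 mM library could not qualify. A falling gene under 1 in every 300 mM library could, so the directions were not chosen on equal terms. Gene lists by function could not be formed and were not tested. Alternatives covered pseudocounts, filters, scalings, limma-voom on recovered reads, all 9 libraries, a replicate block, thresholds and leaving out each library.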

Additional observations from a re-analysis of the deposited data

How the results depend on the processing

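Falls outnumbered rises under every alternative. No gene called in both a given fit and the one reported changed sign. These fits share most or all of their libraries, so that agreement in sign is largely built in and adds no support. The numbers of calls moved. Removing 1 library at a time gave 606 to 3129 calls, 65 to 786 higher and 531 to 2343 lower. With replicate 1 at 300 mM left out there were 3119 calls (1087 higher) after scaling to recovered reads, and 3189 (849 higher) with the filter set on all 6 libraries, a setting chosen after seeing the data. All 9 libraries in the fit gave 3137 calls, 670 of them higher. With no filter on low values there were 1298 calls, 198 higher and 1100 lower, and at an adjusted p under 0.01 there were 399, 43 higher and 356 lower. The cause of these moves was not tested, except that a stricter threshold lowers counts by construction.

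With the replicate number as a block (replicate block) 1475 genes were called, 270 higher and 1205 lower. Libraries that share a number did not deviate together, at correlations of 0.0996, 0.0856 and -0.187, and not every library correlated best with its own number. Pseudocounts of 0.1 and 1, a filter on the mean, median-ratio and upper-quartile scaling, limma-voom, a plain variance model and a 2-fold minimum left each count within 1.5 times. Under limma-voom 2298 genes were called. Gohir.A09G106800.v2.1 did not reach the filter when a 150 mM library was left out, so no value is given there. With 3 libraries per group the precision rests on few libraries, and low or short genes rest on few reads.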
